A study of Homo sapiens with 24 samples.

Results

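Messenger RNA levels of 10 genes of polyamine metabolism were followed through 4 cancer cell lines and 3 treatments. The genes were taken by name: ODC1, AMD1, SRM and SMS, which encode enzymes of polyamine synthesis, ARG2, which supplies their substrate, OAZ1, OAZ2 and AZIN1, which control ornithine decarboxylase, and SAT1 and SMOX, which break polyamines down. Each symbol matched 1 entry, so the 10 genes are 10 of the 30373 entries of the expression table. The table holds 24 libraries of poly-A RNA in 12 groups of 2 libraries. In each line, cells were treated for 24 h with ABBV-075 at 100 nM, with ABBV-744 at 200 nM or with the solvent DMSO as control. The lines were SKM-1, MV-4-11 and Kasumi-1, from acute myeloid leukaemia, and NCI-H1299, from non-small cell lung cancer, all grown in RPMI-1640 medium with 10% fetal bovine serum and none engineered per the labels. ABBV-075 is known to bind both bromodomains of the BET proteins, chromatin readers that promote transcription, and ABBV-744 is known to prefer the second bromodomain. Lung cancer is represented by 1 line, and nothing in the labels tells if replicate libraries are separate cultures. A p-value here therefore gauges the scatter among the libraries alone, which may be technical.

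Putrescine, spermidine and spermine are small positively charged molecules that bind nucleic acids and that dividing cells need in quantity. Ornithine decarboxylase makes putrescine from ornithine, and spermidine synthase and spermine synthase then add aminopropyl groups donated by decarboxylated S-adenosylmethionine. Antizymes bind ornithine decarboxylase and send it to the proteasome, antizyme inhibitors bind the antizymes, and acetylation by SAT1 marks polyamines for export or oxidation. ODC1 is a classical target of the transcription factor MYC, and MYC is a known target of BET inhibitors in leukaemia cells.

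The FPKM sum of a library (FPKM are fragments per kilobase of transcript, scaled to library size) ran from 543426 to 719215, and 11243 to 12624 entries reached 1 FPKM. The number of reads behind these values is unknown. Replicates disagreed most in SKM-1 with DMSO: the SD over entries of their log2 difference was 0.694, compared with 0.513 in Kasumi-1 with ABBV-075 and 0.198 to 0.322 in the other groups. Transcripts of the mitochondrial genome made up 22.3% of the FPKM sum in SKM-1 DMSO replicate 2, the highest share, and 6.65% in the lowest library. The line labels were checked on marker genes. The summed level of 6 leucocyte genes was 189.7 to 2650 FPKM in the leukaemia libraries and 2.71 to 4.06 FPKM in NCI-H1299. It moved with treatment, but not alike in all lines. In Kasumi-1 it was 225 and 189.7 FPKM under ABBV-075, 339 and 399 FPKM under ABBV-744, and 398 and 406 FPKM under DMSO. In MV-4-11 it was 1082 and 1084 FPKM under ABBV-075, 1368 and 1470 FPKM under ABBV-744, and 1395 and 1592 FPKM under DMSO. In SKM-1 it was 1726 and 1527 FPKM under ABBV-075, 2449 and 2650 FPKM under ABBV-744, and 1844 and 1124 FPKM under DMSO. The part of this sum in the results was not tested. RUNX1T1, the fusion partner of RUNX1 in Kasumi-1, ran from 29.9 to 53.7 FPKM in the Kasumi-1 libraries and reached 0.78 FPKM at most in the other lines, in SKM-1 DMSO replicate 2. RefSeq lists 4 pseudogene copies of AMD1, 3 of SRM and 1 each of ARG2, SMS and OAZ1, and how reads shared with them were counted is not stated.

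With ABBV-075, SAT1 rose in all 4 lines while SRM and SMS fell in all 4, and OAZ2 rose in the 3 leukaemia lines. With ABBV-744 fewer of the 10 genes were called, and in NCI-H1299 none passed the test. Each change was tested with limma on log2(FPKM + 1), and a call means a Benjamini-Hochberg adjusted p below 0.05. With ABBV-075, 6 of the 10 genes rose and 3 fell in SKM-1, where 61.3% of all entries tested were called in either direction. In MV-4-11, 4 rose and 2 fell against a background of 42.4%, and in NCI-H1299 2 rose and 3 fell against 47.1%. In Kasumi-1, 4 rose and 3 fell against 57.3%, but SMOX, among those that rose, had passed the filter of 1 FPKM in 2 libraries only through its ABBV-075 libraries and so had to differ. With ABBV-744, 3 rose and 1 fell in SKM-1 (background 27.4%), 1 rose and 1 fell in MV-4-11 (11.4%), and 3 rose and 3 fell in Kasumi-1 (23.6%), SMOX again among those that rose. In NCI-H1299, limma called 0 of the 10 with ABBV-744 (background 5.35%), and 1 of them had an unadjusted p under 0.05, a count without a matching share over all entries. The median log2 change of the 10 genes with ABBV-075 was 0.41 in SKM-1, 0.15 in MV-4-11, 0.10 in Kasumi-1 and 0.04 in NCI-H1299, where the medians over all entries tested were 0.05, -0.01, -0.09 and -0.06 in the same order of lines. These are bulk libraries, in which fewer cells with a transcript and less transcript per cell cannot be told apart.

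**Figure D1:**
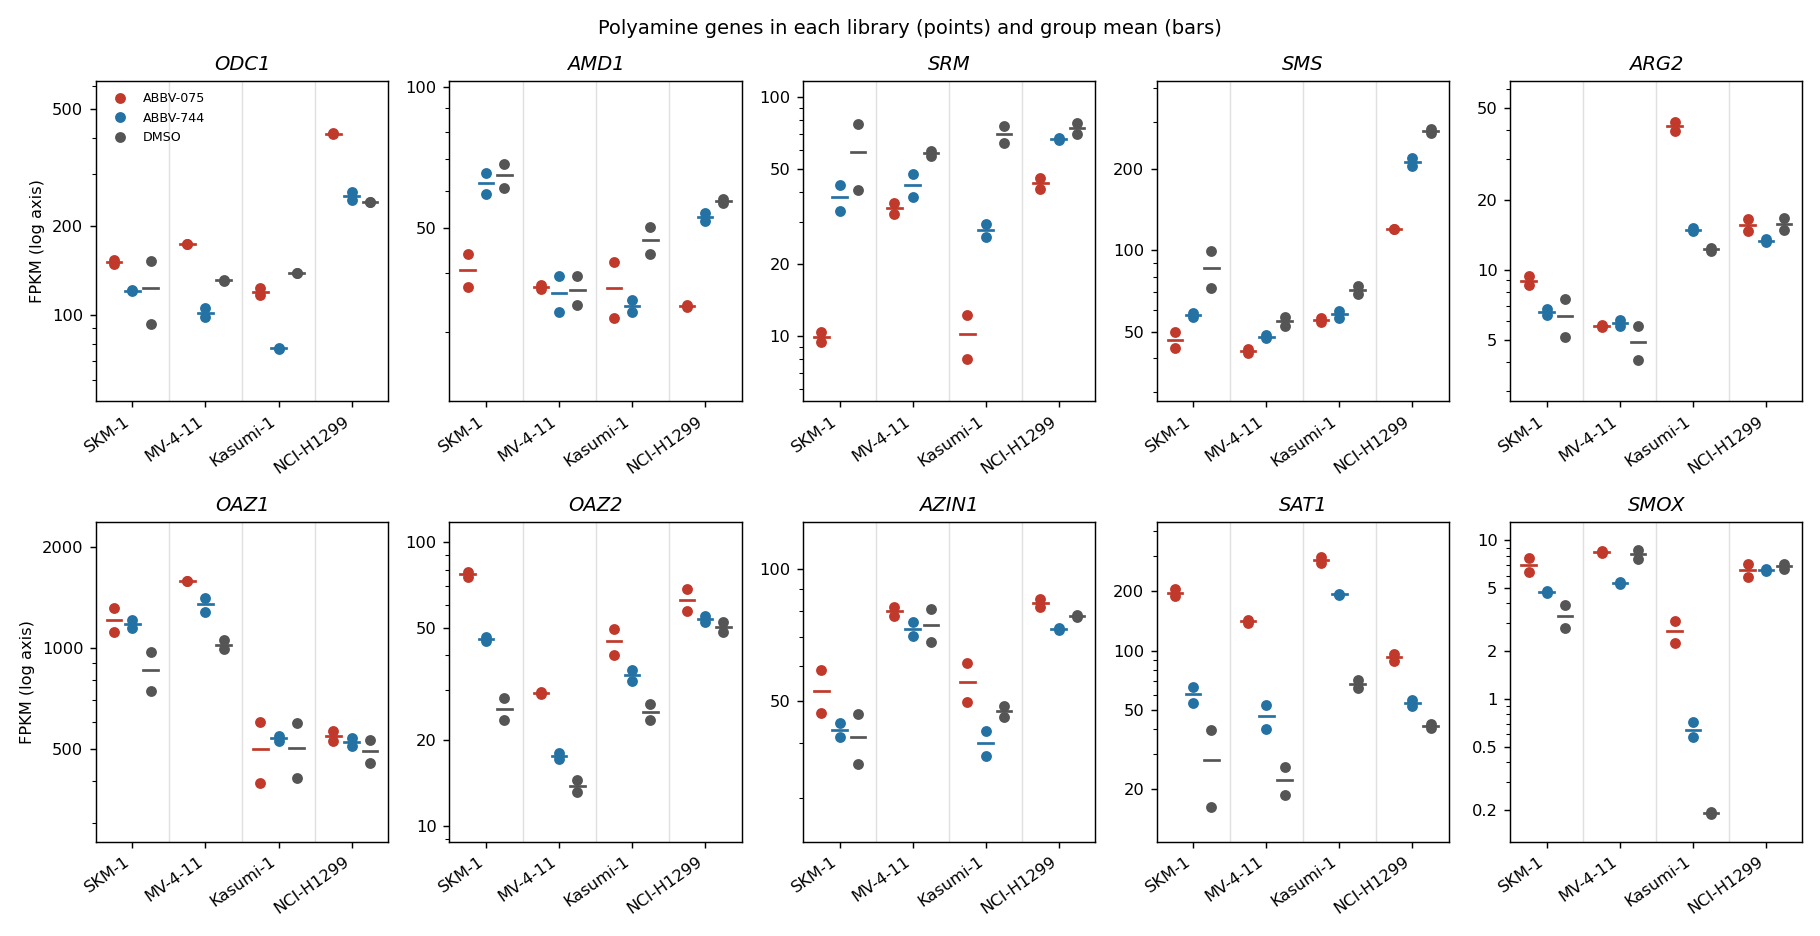
FPKM (log axis) of the 10 genes in every library, with points for libraries and short bars for the mean of the 2 libraries of a group, by line and by treatment. SAT1 with ABBV-075 lies between 89.1 and 298.6 FPKM and above both DMSO libraries in each line, SRM with ABBV-075 lies between 8.02 and 46.0 FPKM, and SMOX is near 0.19 FPKM in the Kasumi-1 DMSO libraries.

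SRM encodes spermidine synthase, which turns putrescine into spermidine, and with ABBV-075 it fell further than the other synthesis genes in the 3 leukaemia lines, while in NCI-H1299 the fall of SMS was larger. In SKM-1 it had 10.4 and 9.43 FPKM under ABBV-075, 33.4 and 43.0 FPKM under ABBV-744, and 77.6 and 40.9 FPKM under DMSO. In Kasumi-1 it had 12.3 and 8.02 FPKM under ABBV-075, 26.0 and 29.6 FPKM under ABBV-744, and 75.8 and 64.1 FPKM under DMSO. In both lines the ABBV-075 libraries lay far below all others. The ABBV-744 libraries lay between the other groups in Kasumi-1 and overlapped DMSO in SKM-1. In MV-4-11 the values were 32.5 and 36.1 FPKM under ABBV-075, 38.3 and 47.8 FPKM under ABBV-744, and 56.9 and 59.4 FPKM under DMSO. In NCI-H1299 they were 41.4 and 46.0 FPKM under ABBV-075, 67.6 and 66.3 FPKM under ABBV-744, and 78.0 and 70.1 FPKM under DMSO. In these lines the 3 groups did not overlap, but they lay closer together. SRM fell with ABBV-075 by 2.40 ± 0.24 on the log2 scale in SKM-1 (limma, adjusted p = 3.66e-07), and its difference in Kasumi-1 was -2.69 ± 0.24 (adjusted p = 1.4e-07). Errors of log2 differences are standard errors with 2 libraries per group, from 1 spread per gene pooled over all 24 libraries. A group whose replicates disagree thus widens the errors of other groups, and its own errors can be too small. SRM fell by 0.75 ± 0.24 in MV-4-11 (limma, adjusted p = 0.0184) and by 0.75 ± 0.24 in NCI-H1299 (adjusted p = 0.017). With ABBV-744 it fell in Kasumi-1 by 1.30 (adjusted p = 0.00102), and the differences of -0.56 in SKM-1, -0.43 in MV-4-11 and -0.14 in NCI-H1299 were not called (adjusted p = 0.0908, 0.289 and 0.891, limma). The MV-4-11 call with ABBV-075 was lost without MV-4-11 DMSO replicate 1 (-0.78, adjusted p = 0.062), DMSO replicate 2 (-0.72, 0.0841) or ABBV-075 replicate 1 (-0.67, 0.104), and the NCI-H1299 call without its DMSO replicate 1 (-0.67, 0.099) or ABBV-075 replicate 1 (-0.67, 0.097). In SKM-1 the ABBV-744 difference was -1.02 and called without DMSO replicate 2 (adjusted p = 0.00302), the library with the lower SRM value, and it was also called under each of the 3 scaling alternatives (-0.73 to -0.62, adjusted p = 0.0183 to 0.0404).

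ODC1 encodes ornithine decarboxylase, the regulated first step of synthesis, and it had no called fall with ABBV-075 in any line. In NCI-H1299 it had 415 and 411 FPKM under ABBV-075, 260.6 and 246 FPKM under ABBV-744, and 241 and 242 FPKM under DMSO. In MV-4-11 it had 175 and 174 FPKM under ABBV-075, 105 and 98.3 FPKM under ABBV-744, and 130.4 and 132 FPKM under DMSO. The ABBV-075 libraries were the highest in both lines, and the replicates lay close together. ODC1 rose with ABBV-075 by 0.77 ± 0.15 on the log2 scale in NCI-H1299 (limma, adjusted p = 0.000678) and by 0.41 ± 0.15 in MV-4-11 (adjusted p = 0.0421). In Kasumi-1 it had 124 and 116 FPKM under ABBV-075, 77.3 and 76.7 FPKM under ABBV-744, and 138.5 and 138.4 FPKM under DMSO. Here the order differed, with ABBV-744 lowest: ODC1 fell by 0.84 with ABBV-744 (adjusted p = 0.00102, limma), and the ABBV-075 difference of -0.20 was not called (adjusted p = 0.27), though it was called without either SKM-1 DMSO library (adjusted p = 0.014). In SKM-1 it had 149.0 and 153.3 FPKM under ABBV-075, 120.6 and 122 FPKM under ABBV-744, and 153.1 and 93.3 FPKM under DMSO. The DMSO libraries spanned both treated groups, and neither difference was called (0.34 with ABBV-075, adjusted p = 0.0689, and 0.02 with ABBV-744, adjusted p = 0.943, limma). Without SKM-1 DMSO replicate 1 these were 0.69 (adjusted p = 3.3e-06) and 0.37 (0.0018), and without DMSO replicate 2 the ABBV-744 difference was -0.34 (0.0083), so 1 DMSO library decided the sign. The MV-4-11 rise was lost under 21 of 33 alternative settings, among them leaving out any of its DMSO or ABBV-075 libraries (adjusted p = 0.12 to 0.14).

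AMD1 encodes the decarboxylase that makes the aminopropyl donor, and SMS encodes spermine synthase. SMS in NCI-H1299 had 120 and 121 FPKM under ABBV-075, 221 and 205 FPKM under ABBV-744, and 272 and 283 FPKM under DMSO. In SKM-1 SMS had 43.5 and 49.9 FPKM under ABBV-075, 58.8 and 56.5 FPKM under ABBV-744, and 72.3 and 99.5 FPKM under DMSO. In both lines the order was ABBV-075, ABBV-744, DMSO from low to high, with no overlap. SMS fell with ABBV-075 by 1.20 ± 0.13 in NCI-H1299 (adjusted p = 1.51e-06), by 0.85 in SKM-1 (adjusted p = 2.74e-05), by 0.36 in MV-4-11 (0.0312) and by 0.36 in Kasumi-1 (0.0231), all on the log2 scale and by limma. Its MV-4-11 libraries had 41.6 and 43.2 FPKM under ABBV-075, 48.7 and 47.2 FPKM under ABBV-744, and 56.7 and 52.7 FPKM under DMSO. In Kasumi-1 they had 56.3 and 54.4 FPKM under ABBV-075, 59.7 and 56.3 FPKM under ABBV-744, and 73.9 and 68.9 FPKM under DMSO. These smaller falls of SMS were not called under 6 of the 33 alternatives each, in MV-4-11 without either DMSO replicate (-0.31 and -0.41, adjusted p = 0.16 and 0.061) or either ABBV-075 replicate (-0.33 and -0.39, 0.14 and 0.083), and in Kasumi-1 without DMSO replicate 1 (-0.31, 0.13) or ABBV-075 replicate 2 (-0.34, 0.088). With ABBV-744 SMS fell by 0.55 in SKM-1 (adjusted p = 0.00463, limma), a difference of -0.32 without SKM-1 DMSO replicate 2, and was not called in the other lines. The SKM-1 call of SMS was lost with array weights (adjusted p = 0.117) and with SKM-1 fitted alone (0.244), while SMS was called under 4 alternatives in NCI-H1299 (-0.38) and under 3 in Kasumi-1 (-0.29).

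AMD1 fell with ABBV-075 in SKM-1, Kasumi-1 and NCI-H1299 but not in MV-4-11. In SKM-1 AMD1 had 37.4 and 44.1 FPKM under ABBV-075, 65.4 and 59.2 FPKM under ABBV-744, and 60.8 and 68.6 FPKM under DMSO. In NCI-H1299 it had 34.3 and 33.8 FPKM under ABBV-075, 53.9 and 51.8 FPKM under ABBV-744, and 57.5 and 56.6 FPKM under DMSO. ABBV-075 alone set these libraries apart, and the ABBV-744 libraries stayed near the DMSO level. In MV-4-11 all 6 libraries lay between 33.1 and 39.4 FPKM. In Kasumi-1 AMD1 had 32.1 and 42.2 FPKM under ABBV-075, 35.1 and 33.1 FPKM under ABBV-744, and 43.9 and 50.3 FPKM under DMSO. The AMD1 fall with ABBV-075 was 0.66 ± 0.14 in SKM-1 (adjusted p = 0.000709), 0.73 in NCI-H1299 (0.000475) and 0.34 in Kasumi-1 (0.0437), and the MV-4-11 difference was 0.03 (0.903), all by limma. With ABBV-744 AMD1 fell by 0.45 in Kasumi-1 (adjusted p = 0.0265, limma) and was not called elsewhere. Both Kasumi-1 calls of AMD1 were weak: with ABBV-075 the call was lost under 20 of 33 alternatives (-0.15, adjusted p = 0.38 without ABBV-075 replicate 1, and -0.25, 0.24 without DMSO replicate 2), and with ABBV-744 under 6, including without DMSO replicate 2 (-0.36, 0.19) or either ABBV-744 replicate (-0.49 and -0.41, 0.076 and 0.14).

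The RefSeq promoter window of SRM and the second of the 2 windows of ODC1 hold the E-box CACGTG, the letters that MYC with its partner MAX is known to bind. Windows were found for 8 of the 10 genes (11 windows, GRCh38.p14), and the 250 bases before the start were searched for CACGTG, which reads the same on both strands. Of all 35116 windows 6.345% hold it, and of the 10 genes SRM and ODC1 do, ODC1 in its second window and not in its first. The windows of SMS, which also fell in all 4 lines with ABBV-075, and of AMD1, which fell in 3, do not hold it. With the 50 bases after the start included, the second ODC1 window holds it 2 times. The sequences are shown for the contrast between SRM, which fell in all 4 lines with ABBV-075, and ODC1, which was called lower in none, with SAT1, which rose in all 4, as a window without the letters. Each runs 5′ to 3′ up to the base before the start, and capitals mark CACGTG.
SRM, chr1:11060019-11060268, minus strand: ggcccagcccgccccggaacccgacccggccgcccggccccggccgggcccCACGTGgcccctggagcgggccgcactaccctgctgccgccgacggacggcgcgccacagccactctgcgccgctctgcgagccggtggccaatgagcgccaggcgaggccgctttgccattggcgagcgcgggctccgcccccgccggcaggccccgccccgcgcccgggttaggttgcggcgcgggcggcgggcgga
ODC1, window 2 of 2, chr2:10448013-10448262, minus strand: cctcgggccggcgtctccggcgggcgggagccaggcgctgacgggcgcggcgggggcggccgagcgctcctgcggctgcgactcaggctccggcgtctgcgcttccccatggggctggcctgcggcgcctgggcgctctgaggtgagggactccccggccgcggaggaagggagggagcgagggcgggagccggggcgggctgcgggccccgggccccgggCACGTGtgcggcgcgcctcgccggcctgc
SAT1, chrX:23782923-23783172, plus strand: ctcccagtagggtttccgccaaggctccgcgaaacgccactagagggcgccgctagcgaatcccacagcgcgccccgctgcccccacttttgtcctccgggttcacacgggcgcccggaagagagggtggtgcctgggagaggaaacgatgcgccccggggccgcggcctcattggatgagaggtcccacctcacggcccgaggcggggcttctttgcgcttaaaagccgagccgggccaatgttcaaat
The first base of CACGTG lies at position -199 from the start in the SRM window and at -29 in the second ODC1 window. The letters describe the windows and do not show that MYC is bound there.

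MYC itself was measured in the same libraries. MYC had 3.17 and 3.27 FPKM under ABBV-075, 121 and 139 FPKM under ABBV-744, and 308.6 and 178 FPKM under DMSO in SKM-1. In Kasumi-1 MYC had 29.4 and 28.1 FPKM under ABBV-075, 124.6 and 118 FPKM under ABBV-744, and 265 and 229.7 FPKM under DMSO. These are the lines in which SRM fell most. In MV-4-11 MYC had 80.8 and 76.7 FPKM under ABBV-075, 129.97 and 129.6 FPKM under ABBV-744, and 178 and 174 FPKM under DMSO, and in NCI-H1299 it had 78.8 and 87.6 FPKM under ABBV-075, 104 and 105.6 FPKM under ABBV-744, and 107 and 99.97 FPKM under DMSO. The MYC change with ABBV-075 was called in the 3 leukaemia lines and not in NCI-H1299 (limma), where SRM, SMS and AMD1 were called. HEXIM1, a known marker of BET inhibition, rose with both compounds in all 4 lines, by 1.93 to 2.97 on the log2 scale with ABBV-075 and by 0.61 to 1.01 with ABBV-744. SERPINI1, another such marker, rose with ABBV-075 in all 4 lines (1.92 to 4.02) and with ABBV-744 in MV-4-11 and Kasumi-1 (1.35 and 2.06). Whether MYC has a part in the changes of the 10 genes was not tested.

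ARG2 encodes the mitochondrial arginase, which makes ornithine from arginine, and it stood out in Kasumi-1. There ARG2 had 43.4 and 39.5 FPKM under ABBV-075, 15.2 and 14.6 FPKM under ABBV-744, and 12.1 and 12.4 FPKM under DMSO. Both ABBV-075 libraries lay above every other library of the series, since the other ARG2 values ran from 4.09 to 16.7 FPKM. ARG2 rose with ABBV-075 by 1.68 ± 0.15 in Kasumi-1 (limma, adjusted p = 1.17e-07). In SKM-1 it had 8.56 and 9.37 FPKM under ABBV-075, 6.75 and 6.38 FPKM under ABBV-744, and 7.52 and 5.15 FPKM under DMSO, a rise of 0.46 with ABBV-075 (adjusted p = 0.0122, limma). That SKM-1 rise was 0.23 (adjusted p = 0.18) without SKM-1 DMSO replicate 2, 0.69 without DMSO replicate 1 and 0.40 (0.076) without ABBV-075 replicate 2. ARG2 was not called in MV-4-11 or NCI-H1299, nor with ABBV-744 in any line.

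The antizyme gene OAZ1 was the most abundant of the 10 in every library, and its relative OAZ2 had the larger changes with ABBV-075. OAZ2 had 78.7 and 75.6 FPKM under ABBV-075, 46.5 and 45.0 FPKM under ABBV-744, and 28.2 and 23.6 FPKM under DMSO in SKM-1. In MV-4-11 OAZ2 had 29.1 and 29.6 FPKM under ABBV-075, 17.3 and 18.1 FPKM under ABBV-744, and 13.2 and 14.5 FPKM under DMSO. In Kasumi-1 it had 49.4 and 40.01 FPKM under ABBV-075, 35.5 and 32.5 FPKM under ABBV-744, and 26.8 and 23.7 FPKM under DMSO. In each leukaemia line the order from high to low was ABBV-075, ABBV-744, DMSO without overlap. OAZ2 rose with ABBV-075 by 1.54 ± 0.13 in SKM-1 (adjusted p = 4.34e-08), 1.03 in MV-4-11 (7.56e-06) and 0.79 in Kasumi-1 (6.42e-05), by limma on the log2 scale. In NCI-H1299 OAZ2 had 68.1 and 56.97 FPKM under ABBV-075, 54.8 and 52.2 FPKM under ABBV-744, and 52.1 and 48.4 FPKM under DMSO. The NCI-H1299 difference of 0.31 with ABBV-075 just missed the call (limma, adjusted p = 0.058) and was called under 11 of 33 alternatives, including each scaling alternative (0.38 to 0.49). With ABBV-744 OAZ2 rose by 0.80 in SKM-1 (adjusted p = 0.000263) and by 0.42 in Kasumi-1 (0.0255), and the differences of 0.33 in MV-4-11 and 0.09 in NCI-H1299 were not called (0.113 and 0.858), all by limma. The SKM-1 rise with ABBV-744 was lost with array weights (adjusted p = 0.0704) and with SKM-1 fitted alone (0.096). The Kasumi-1 rise with ABBV-744 was lost without DMSO replicate 2 (0.33, adjusted p = 0.18) or either ABBV-744 replicate (0.35 and 0.48, 0.16 and 0.058).

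OAZ1 had 1318 and 1116 FPKM under ABBV-075, 1149 and 1213 FPKM under ABBV-744, and 972 and 745 FPKM under DMSO in SKM-1. In MV-4-11 OAZ1 had 1592 and 1588 FPKM under ABBV-075, 1285 and 1415 FPKM under ABBV-744, and 992 and 1055 FPKM under DMSO. Both treated groups lay above DMSO in these lines. In Kasumi-1, at 395 to 600.2 FPKM, and in NCI-H1299, at 454 to 564 FPKM, the groups overlapped. OAZ1 rose with ABBV-075 by 0.64 ± 0.20 in MV-4-11 (adjusted p = 0.0166) and by 0.51 in SKM-1 (0.035), by limma, and was not called with ABBV-744 in any line. Neither OAZ1 call was firm. In SKM-1 the change was 0.15 after quantile normalization (adjusted p = 0.46), 0.32 without DMSO replicate 2 (0.23) and 0.39 without ABBV-075 replicate 1 (0.2). In MV-4-11 the call was lost without either DMSO replicate (0.59 and 0.68, adjusted p = 0.087 and 0.051) or either ABBV-075 replicate (0.63 and 0.64, 0.07 and 0.069). AZIN1 encodes the antizyme inhibitor. Its level ran from 35.9 to 58.8 FPKM in SKM-1, 68.1 to 81.8 FPKM in MV-4-11, 37.5 to 60.9 FPKM in Kasumi-1 and 72.5 to 85.4 FPKM in NCI-H1299. The only call of AZIN1 against DMSO was a rise of 0.35 in SKM-1 with ABBV-075 (limma, adjusted p = 0.046), which was lost under 23 of 33 alternatives and was 0.16 without SKM-1 DMSO replicate 1 (0.34), 0.54 without DMSO replicate 2 and 0.19 without ABBV-075 replicate 2 (0.36).

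SAT1 encodes spermidine/spermine acetyltransferase, the inducible enzyme of polyamine breakdown, and on the log2(FPKM + 1) scale it showed the largest rise of the 10 genes with ABBV-075 in all 4 lines, though with a pseudocount of 0.1 the SMOX difference in Kasumi-1 was larger. In SKM-1 SAT1 had 188 and 205 FPKM under ABBV-075, 65.7 and 54.7 FPKM under ABBV-744, and 16.3 and 39.7 FPKM under DMSO. In MV-4-11 it had 143 and 138 FPKM under ABBV-075, 53.0 and 40.2 FPKM under ABBV-744, and 26.0 and 18.7 FPKM under DMSO. In Kasumi-1 it had 278 and 299 FPKM under ABBV-075, 192 and 193 FPKM under ABBV-744, and 65.0 and 71.3 FPKM under DMSO. In every leukaemia line all ABBV-744 libraries lay above all DMSO libraries and below all ABBV-075 libraries. In NCI-H1299 the order was the same over a smaller range, with 95.7 and 89.1 FPKM under ABBV-075, 56.1 and 52.4 FPKM under ABBV-744, and 42.4 and 40.6 FPKM under DMSO. SAT1 rose with ABBV-075 by 2.89 ± 0.27 on the log2 scale in SKM-1 (adjusted p = 1.8e-07), 2.62 in MV-4-11 (1.16e-06), 2.07 in Kasumi-1 (8.77e-06) and 1.14 in NCI-H1299 (0.00265), by limma, and these calls held under all 33 alternatives. With ABBV-744 it rose by 1.20 in SKM-1 (adjusted p = 0.00393), 1.03 in MV-4-11 (0.0194) and 1.49 in Kasumi-1 (0.000949), and the NCI-H1299 difference of 0.38 was not called (0.605), by limma. The DMSO libraries of SKM-1 lay far apart in SAT1: the ABBV-744 rise there was 0.58 without DMSO replicate 1 and 1.82 without DMSO replicate 2, and the SKM-1 call was lost with array weights (adjusted p = 0.0672) and with SKM-1 fitted alone (0.165). The NCI-H1299 difference of SAT1 was called under the same settings (0.38, adjusted p = 0.0202 and 0.0064). The MV-4-11 rise with ABBV-744 was lost without DMSO replicate 2 (0.81, adjusted p = 0.2) or ABBV-744 replicate 1 (0.84, 0.16).

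SMOX encodes spermine oxidase, which turns spermine back into spermidine. By the median over all libraries SMOX and ARG2 were the lowest of the 10, at 5.67 and 10.7 FPKM, though ARG2 was not in Kasumi-1 with ABBV-075. In SKM-1 SMOX had 7.77 and 6.30 FPKM under ABBV-075, 4.65 and 4.80 FPKM under ABBV-744, and 3.91 and 2.78 FPKM under DMSO, a rise of 0.89 ± 0.14 with ABBV-075 (limma, adjusted p = 4.46e-05) and of 0.41 with ABBV-744 (0.0391). In Kasumi-1 it had 3.12 and 2.24 FPKM under ABBV-075, 0.71 and 0.57 FPKM under ABBV-744, and 0.19 FPKM in both DMSO libraries. All 4 treated libraries of Kasumi-1 lay above its DMSO libraries, but only 2 of the 6 reached 1 FPKM, and the log2 difference with ABBV-075 was 1.62 with a pseudocount of 1 and 3.23 with 0.1. In MV-4-11 SMOX moved the other way with ABBV-744, with 8.32 and 8.57 FPKM under ABBV-075, 5.46 and 5.34 FPKM under ABBV-744, and 7.58 and 8.73 FPKM under DMSO, a fall of 0.51 with ABBV-744 (adjusted p = 0.0243, limma). In NCI-H1299 all libraries lay between 5.88 and 7.06 FPKM. The SMOX calls with ABBV-744 were lost under 15 of 33 alternatives in SKM-1 (0.22, adjusted p = 0.31 without DMSO replicate 2) and 5 in MV-4-11 (-0.42, 0.2 without DMSO replicate 2), and in Kasumi-1 without any of its DMSO or ABBV-744 libraries (0.40 to 0.52, 0.059 to 0.15).

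**Figure D2:**
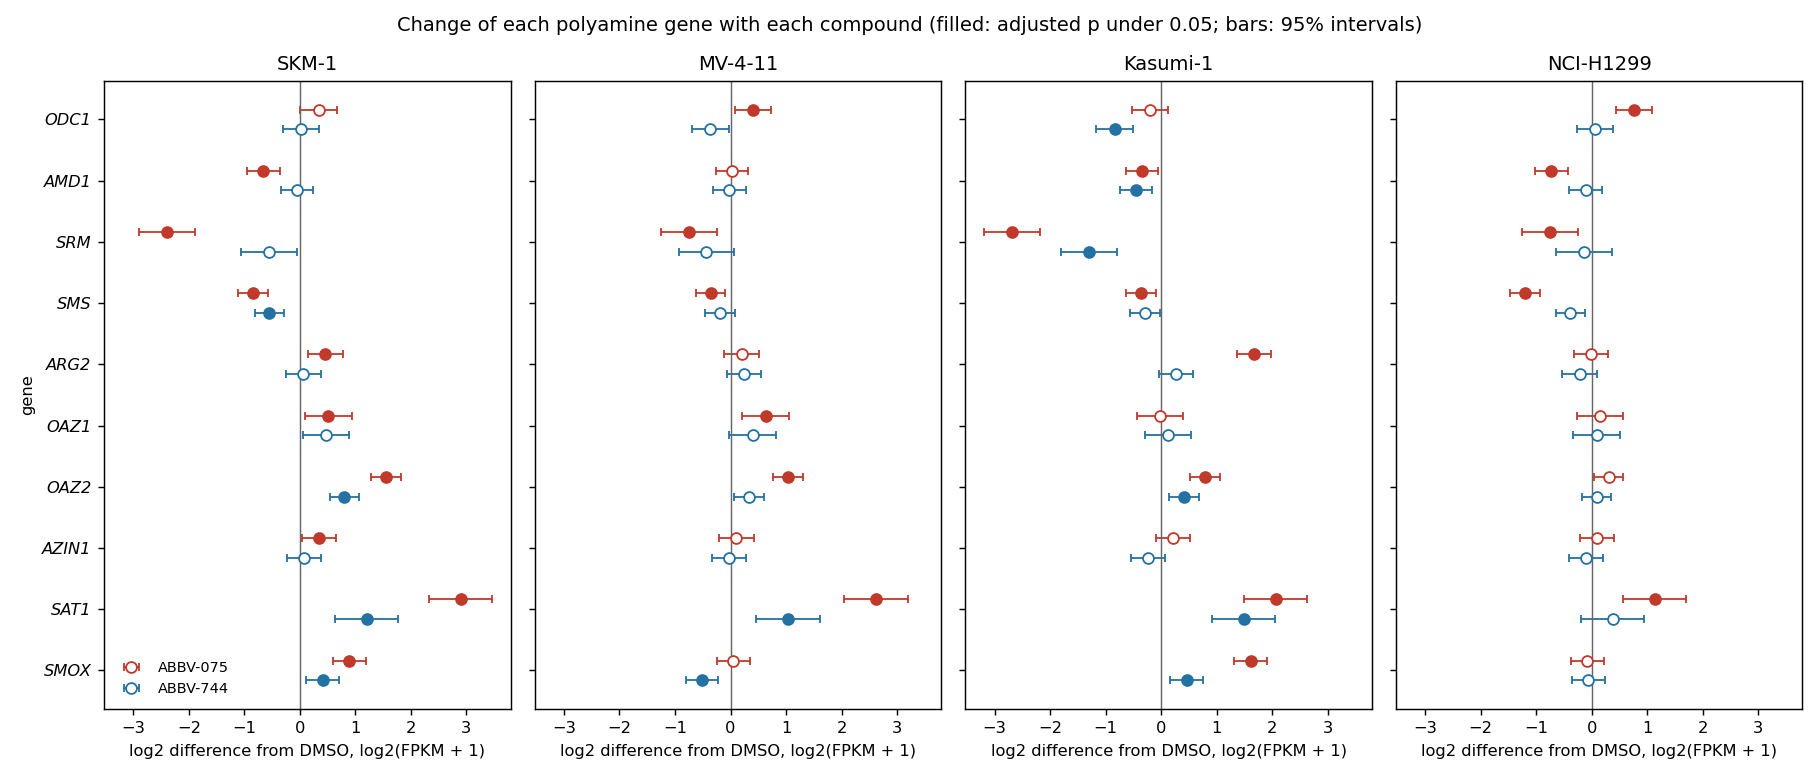
Log2 difference from DMSO on the log2(FPKM + 1) scale (x axis) for each gene (y axis) with ABBV-075 (red) and ABBV-744 (blue) in each line, with 95% intervals and filled points where limma's adjusted p was under 0.05. SAT1 lies right of 0 and SRM and SMS lie left of 0 with ABBV-075 in all 4 lines, and no ABBV-744 point is filled in NCI-H1299.

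SAT1 and SRM, on opposite sides of spermidine, moved in opposite directions, and their ratio gives each library 1 number. Per unit of transcript length, SAT1 was 18.1 and 21.7 times as abundant as SRM in SKM-1 with ABBV-075, 1.97 and 1.27 times with ABBV-744, and 0.21 and 0.97 times with DMSO. In Kasumi-1 the ratio was 22.6 and 37.2 with ABBV-075, 7.37 and 6.53 with ABBV-744, and 0.86 and 1.11 with DMSO. In MV-4-11 it was 4.40 and 3.83 with ABBV-075, 1.38 and 0.84 with ABBV-744, and 0.46 and 0.31 with DMSO, and in NCI-H1299 it was 2.31 and 1.94 with ABBV-075, 0.83 and 0.79 with ABBV-744, and 0.54 and 0.58 with DMSO. The groups did not overlap within any line, and SAT1 outweighed SRM in all 8 libraries with ABBV-075. Over the 12 group means, after the mean of each line was taken out, SRM and SAT1 had a Pearson r of -0.876, OAZ2 and SAT1 of 0.974 and AMD1 and SMS of 0.869. These pairs are examples, and others reached similar values, such as ARG2 and SMOX at 0.873 and SRM and OAZ2 at -0.864. With the line means left in, r was -0.815 for SRM and SAT1, 0.524 for OAZ2 and SAT1 and 0.468 for AMD1 and SMS. These correlations describe groups that share lines and treatments and are given without a test.

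**Figure D3:**
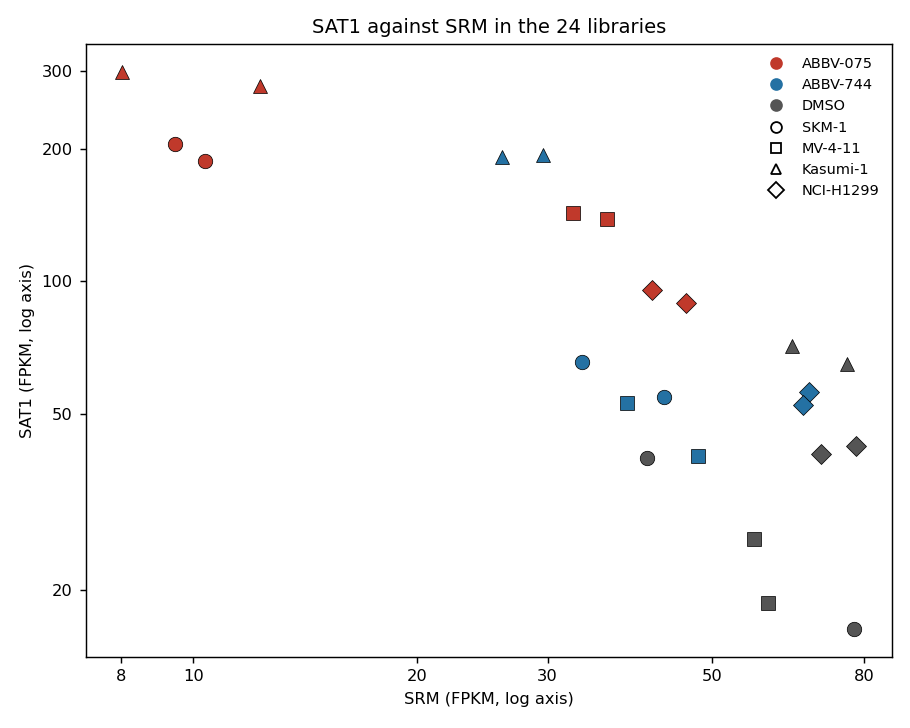
SAT1 against SRM in the 24 libraries, both in FPKM on log axes, with colour for treatment and symbol for line. Libraries with ABBV-075 lie towards the upper left, with SRM at 8.02 to 46.0 FPKM, and DMSO libraries towards the lower right, with SRM at 40.9 to 78.0 FPKM.

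The compounds were compared directly at these doses, which differ, with ABBV-744 at 200 nM set against ABBV-075 at 100 nM. In SKM-1, 6 of the 10 genes were called (background 43.6%): SRM and AMD1 were higher with ABBV-744 by 1.84 and 0.60 on the log2 scale, and SAT1, OAZ2, SMOX and ARG2 were lower by 1.69, 0.74, 0.48 and 0.40. In MV-4-11, 4 were called, all lower with ABBV-744 (background 21.9%): SAT1 by 1.58, ODC1 by 0.77, OAZ2 by 0.70 and SMOX by 0.56. In Kasumi-1, 6 were called (background 37.7%), with SRM higher by 1.39 and ARG2, SMOX, ODC1, AZIN1 and OAZ2 lower by 1.41, 1.16, 0.63, 0.45 and 0.38. SMOX had passed the filter there only through its ABBV-075 libraries, so its difference is a description, and it was -1.89 with a pseudocount of 0.1. In NCI-H1299, 4 were called (background 34.6%), with SMS and AMD1 higher by 0.81 and 0.62 and SAT1 and ODC1 lower by 0.76 and 0.70. ODC1 was thus called lower with ABBV-744 than with ABBV-075 in 3 lines. In 2 of them, Kasumi-1 and MV-4-11, ABBV-744 libraries lay below DMSO, and in NCI-H1299 they did not. In SKM-1 the ODC1 difference of -0.32 was not called. It was called under each of the 3 scaling alternatives (-0.43 to -0.35, adjusted p = 0.0161 to 0.0437) and with array weights (0.00493), by limma. The differences that limma did not call leave room for real ones: SRM in MV-4-11 differed by 0.32 with a 95% interval of -0.19 to 0.82, SRM in NCI-H1299 by 0.61 (0.10 to 1.11, adjusted p = 0.0596) and SAT1 in Kasumi-1 by -0.58 (-1.15 to -0.01, adjusted p = 0.101). OAZ1 differed between the compounds by -0.24 to 0.14 over the 4 lines and was called in none. Of the 20 calls, 13 held under all 33 alternatives, and among the 7 that did not were SAT1 in NCI-H1299, lost without any of its ABBV-744 or ABBV-075 libraries (-0.81 to -0.71, adjusted p = 0.11 to 0.16), and OAZ2 and AZIN1 in Kasumi-1 (-0.23, 0.18 without ABBV-075 replicate 1, and -0.30, 0.21 without ABBV-075 replicate 2).

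Whether the response to a compound differed among the 4 lines was tested with limma's F-test over the interaction. With ABBV-075, 8 of the 10 genes differed among lines (background 50.4%), all but OAZ1 (adjusted p = 0.156) and AZIN1 (0.622). With ABBV-744, ODC1 and SMOX differed (background 6.5%). SMOX is in both counts, but in Kasumi-1 it passed the filter only through its ABBV-075 libraries. Its difference among lines is therefore a description with either compound. Among leukaemia lines with ABBV-075, SKM-1 minus MV-4-11 gave 5 calls (background 29.2%), among them SRM at -1.65 (adjusted p = 0.00178) and AMD1 at -0.68 (0.0161). SKM-1 minus Kasumi-1 gave 4 (background 30.9%), among them ARG2 at -1.22 (adjusted p = 0.000632), and MV-4-11 minus Kasumi-1 gave 4 (background 27.3%), among them SRM at 1.94 (0.000687) and ARG2 at -1.48 (0.000115), all by limma. With ABBV-744 each of these line pairs gave 1 call: SMOX at 0.92 for SKM-1 minus MV-4-11 (background 5.43%), ODC1 at 0.86 for SKM-1 minus Kasumi-1 (3.98%) and SMOX at -0.97 for MV-4-11 minus Kasumi-1 (3.9%). The ODC1 value was 0.50 without SKM-1 DMSO replicate 2, and its call was lost under 21 of 33 alternatives, among them median-of-ratios scaling (adjusted p = 0.0587), quantile normalization (0.0951) and the lines fitted alone (0.415). The SMOX values against Kasumi-1 rest on a line in which SMOX passed the filter through ABBV-075 alone, and the ABBV-744 value for MV-4-11 minus Kasumi-1 was -1.92 with a pseudocount of 0.1. Relative to its own DMSO level, SRM fell less with ABBV-075 in MV-4-11 than in SKM-1, a call kept under all 33 alternatives. The AMD1 call for the same pair was lost under 5, including array weights (adjusted p = 0.102), the lines fitted alone (0.0546) and leaving out SKM-1 ABBV-075 replicate 1 (0.0723), MV-4-11 DMSO replicate 2 (0.0709) or MV-4-11 ABBV-075 replicate 1 (0.0511). The SAT1 rise in MV-4-11 did not differ detectably from that in SKM-1 (0.27 for SKM-1 minus MV-4-11, 95% interval -0.53 to 1.08).

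For the mean of the 3 leukaemia lines, whose errors take the lines as fixed, 9 of the 10 genes were called with ABBV-075 (background 67.9%) and 6 with ABBV-744 (background 35.5%). SMOX, among the 9, passed the filter in Kasumi-1 only through ABBV-075, so its value of 0.85 is a description. It was 1.45 with a pseudocount of 0.1. On the log2(FPKM + 1) scale the largest called differences with ABBV-075 were SAT1 at 2.53 (95% interval 2.20 to 2.86), SRM at -1.95 (-2.24 to -1.66) and OAZ2 at 1.12 (0.97 to 1.28). With ABBV-744 they were SAT1 at 1.24 (0.91 to 1.57), SRM at -0.76 (-1.06 to -0.47) and OAZ2 at 0.52 (0.36 to 0.67). Set against NCI-H1299, the leukaemia mean response to ABBV-075 differed for 7 genes (background 18.5%). SRM fell further in the leukaemia mean, by 1.20 (adjusted p = 0.00591), and SAT1, SMOX, OAZ2 and ARG2 rose further by 1.39 (0.00516), 0.93 (0.00078), 0.82 (0.000989) and 0.79 (0.00377), all by limma. The SMOX value includes Kasumi-1, where the filter was passed through ABBV-075 alone, and was 1.54 with a pseudocount of 0.1. SMS fell less in the leukaemia mean, with a difference of 0.67 (adjusted p = 0.00413, limma). The ODC1 difference was -0.59 (adjusted p = 0.0284, limma), though ODC1 was not called in the leukaemia mean itself. That ODC1 call was lost without any of the NCI-H1299 DMSO or ABBV-075 libraries, with values of -0.60 to -0.58. With ABBV-744, 0 of the 10 were called by limma in this contrast (background 0.57%), and 5 had an unadjusted p under 0.05. That background is for adjusted calls, so the count by unadjusted p has no share over all entries to be read against. The lung comparison rests on 1 line, so tissue and line cannot be told apart.

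Under DMSO the lines differed in 9 of the 10 genes, near the background of 87.6% (limma F-test over the DMSO groups). The exception was SRM (adjusted p = 0.328), which was called as well without SKM-1 DMSO replicate 1. SMS was far higher in NCI-H1299, at 272 and 283 FPKM, than in SKM-1 (72.3 and 99.5 FPKM), Kasumi-1 (73.9 and 68.9 FPKM) and MV-4-11 (56.7 and 52.7 FPKM). SKM-1 and Kasumi-1 did not differ in SMS beyond their spread, and MV-4-11 was below both. The SMS difference of SKM-1 minus Kasumi-1 was called after scaling to equal sums without mitochondrial transcripts (0.46, adjusted p = 0.0149, limma). It was also called, at 0.48, without SKM-1 DMSO replicate 1. AMD1 was lowest in MV-4-11, at 39.4 and 34.2 FPKM, below each of the other lines, whose libraries ran from 43.9 to 68.6 FPKM. The AMD1 call for MV-4-11 minus Kasumi-1 (-0.35) was weak and was lost with these lines fitted alone (adjusted p = 0.0818, limma). It was also lost, at -0.25, without DMSO replicate 2 of either line. NCI-H1299 also had the most ODC1, at 241 and 242 FPKM against 93.3 to 153.1 FPKM in the leukaemia lines, among which no difference was called, and the most OAZ2, at 52.1 and 48.4 FPKM against 13.2 to 28.2 FPKM. OAZ1 was higher in MV-4-11 (992 and 1055 FPKM) and SKM-1 (972 and 745 FPKM) than in Kasumi-1 (597 and 407 FPKM) and NCI-H1299 (454 and 531 FPKM), with no called difference within either pair. SAT1 ran from Kasumi-1 (65.0 and 71.3 FPKM) through NCI-H1299 (42.4 and 40.6 FPKM) to SKM-1 (16.3 and 39.7 FPKM) and MV-4-11 (26.0 and 18.7 FPKM). The last 2 had no called difference, but without SKM-1 DMSO replicate 1 SKM-1 was called higher than MV-4-11, by 0.82. The step of SAT1 between SKM-1 and NCI-H1299 was -0.68 and called, but -0.06 without SKM-1 DMSO replicate 1 (adjusted p = 0.77) and -1.30 without DMSO replicate 2. SMOX was near 0 in Kasumi-1 (0.19 FPKM in both libraries) and 2.78 to 8.73 FPKM in the other lines. ARG2 was higher in NCI-H1299 (14.8 and 16.6 FPKM) and Kasumi-1 (12.1 and 12.4 FPKM) than in SKM-1 (7.52 and 5.15 FPKM) and MV-4-11 (5.71 and 4.09 FPKM). AZIN1 was higher in MV-4-11 and NCI-H1299, at 68.1 to 80.9 FPKM, than in Kasumi-1 and SKM-1, at 35.9 to 48.7 FPKM. Line by line, 5 genes were called for SKM-1 minus MV-4-11 (background 56.7%), 5 for SKM-1 minus Kasumi-1 (55.7%), 8 for MV-4-11 minus Kasumi-1 (55.7%), 8 for SKM-1 minus NCI-H1299 (63.5%), 7 for MV-4-11 minus NCI-H1299 (63.3%) and 6 for Kasumi-1 minus NCI-H1299 (62.8%).

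Because FPKM is scaled by length, levels can also be set between genes. OAZ1 made up 34.99% to 79.4% of the summed FPKM of the 10 genes and was 8.28 to 78.4 times as abundant as OAZ2. SRM took 3.997% of the summed FPKM of the 4 synthesis genes in SKM-1 with ABBV-075, 13.7% with ABBV-744 and 17.4% with DMSO (means of 2 libraries). In Kasumi-1 the SRM share was 4.55% with ABBV-075, 14.1% with ABBV-744 and 21.4% with DMSO. The whole synthesis sum moved less: it was 248 FPKM under ABBV-075, 279 FPKM under ABBV-744 and 333 FPKM under DMSO in SKM-1, and in MV-4-11, where ODC1 rose, it was 288 FPKM under ABBV-075, 229 FPKM under ABBV-744 and 281 FPKM under DMSO.

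Genes whose profile over the 12 group means was most like that of a polyamine gene were sought among 8498 entries with a mean of at least 5 FPKM, by Pearson r on log2(FPKM + 1). For ODC1 these were SRXN1 (0.966), NQO1 (0.947) and TEX261 (0.937). For SRM they were DHX37, ITPA and NME1, each at 0.974, and for AMD1 they were CACYBP (0.924), ZMYND19 (0.919) and ILF2 (0.919). For SAT1 they were HIF1AN (0.974), TP53INP1 (0.966) and MAP3K3 (0.957). The 12 points share lines and controls.

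The wider pathway was counted in 5 lists with 38 other genes. With ABBV-075, 15 of 29 tested genes fell and 6 rose in SKM-1, 10 of 28 fell and 7 rose in MV-4-11, 15 of 27 fell and 5 rose in Kasumi-1, and 13 of 30 fell and 5 rose in NCI-H1299. Of all entries tested, 29.2% fell and 32% rose in SKM-1, and 22.1% fell and 20.3% rose in MV-4-11. In Kasumi-1 32.6% of all entries fell and 24.7% rose, and in NCI-H1299 26.5% fell and 20.6% rose. The median log2 change of the listed genes with ABBV-075 was -0.59 in SKM-1, -0.24 in MV-4-11, -0.48 in Kasumi-1 and -0.15 in NCI-H1299. With ABBV-744 the same genes were tested in each line. Of these, 6 fell and 2 rose in SKM-1, and 3 fell and 1 rose in MV-4-11. In Kasumi-1 9 fell and 2 rose, and in NCI-H1299 1 fell and 1 rose. Of all entries, 12.5% fell and 14.9% rose in SKM-1 with ABBV-744, and 6.75% fell and 4.61% rose in MV-4-11. In Kasumi-1 15% of all entries fell and 8.69% rose, and in NCI-H1299 3.95% fell and 1.4% rose. A gene near the filter could pass through 1 group alone, as SLC12A8 did in MV-4-11, where it stayed below 1 FPKM with both compounds and had 1.43 and 1.40 FPKM under DMSO, so the counts describe the genes that passed.

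Among the arginine and ornithine genes, the falls of ASS1 and PYCR1 with ABBV-075 were larger than that of any synthesis enzyme. ASS1, which makes the precursor of arginine, had 9.78 and 8.28 FPKM under ABBV-075, 52.8 and 60.9 FPKM under ABBV-744, and 193 and 231 FPKM under DMSO in MV-4-11, a difference of -4.41 ± 0.28 with ABBV-075 (limma, adjusted p = 4.89e-09). In NCI-H1299 ASS1 stayed at 0.83 to 1.28 FPKM in all libraries. PYCR1, which makes proline, had 3.25 and 2.20 FPKM under ABBV-075, 29.1 and 37.2 FPKM under ABBV-744, and 95.9 and 44.0 FPKM under DMSO in SKM-1, a difference of -4.16 ± 0.26 with ABBV-075 (limma, adjusted p = 2.44e-09). PYCR1 fell in all 3 lines in which it was tested with ABBV-075 and reached 0.30 FPKM at most in Kasumi-1. AGMAT had 0.34 and 0.40 FPKM under ABBV-075, 1.95 and 1.68 FPKM under ABBV-744, and 6.31 and 5.41 FPKM under DMSO in Kasumi-1 (a fall of 2.32 with ABBV-075). ALDH18A1, on the route from glutamate to ornithine and proline, fell by up to 1.32 with ABBV-075 (Kasumi-1, adjusted p = 2.08e-05, limma). ASL, the enzyme after ASS1, was called in no line with either compound.

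Of the transport genes, SLC7A1, the cationic amino acid carrier that takes up arginine, fell with ABBV-075 in all 4 lines and with ABBV-744 in SKM-1 and Kasumi-1. In SKM-1 SLC7A1 had 2.71 and 2.35 FPKM under ABBV-075, 12.8 and 14.7 FPKM under ABBV-744, and 27.9 and 19.8 FPKM under DMSO, a difference of -2.80 ± 0.14 with ABBV-075 (limma, adjusted p = 1.7e-10). SLC3A2, the heavy chain of several amino acid transporters, fell by up to 1.72 with ABBV-075 (MV-4-11), where it had 66.7 and 71.5 FPKM under ABBV-075, 147 and 165 FPKM under ABBV-744, and 217 and 243 FPKM under DMSO, and it was not called in NCI-H1299. SLC12A8 fell by 1.83 and SLC7A2 by 1.39 in SKM-1 with ABBV-075 (adjusted p = 1.39e-07 and 1.48e-09, limma).

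Spermidine is also the donor for hypusine, a modified lysine that eIF5A needs. EIF5A fell with ABBV-075 by 1.74 ± 0.18 in Kasumi-1 (limma, adjusted p = 9.41e-07), where it had 58.98 and 40.5 FPKM under ABBV-075, 94.5 and 83.6 FPKM under ABBV-744, and 183 and 150.5 FPKM under DMSO. DOHH, the second enzyme of the modification, fell by 1.43 ± 0.23 in NCI-H1299 (adjusted p = 0.000122, limma), and DHPS, the first enzyme, was called in no line. EIF5A2, the paralogue of EIF5A, rose with ABBV-075 in all 4 lines, by 1.30 in Kasumi-1 (adjusted p = 4.33e-07, limma), at levels of 0.61 to 8.93 FPKM over the series.

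In the methionine cycle and the salvage of methylthioadenosine, the by-product of spermidine and spermine synthesis, MTAP, the first salvage enzyme, fell with ABBV-075 in all 4 lines, most in SKM-1 by 1.57 ± 0.14 (limma, adjusted p = 8.54e-08). MTAP had 13.4 and 14.5 FPKM under ABBV-075, 35.3 and 38.2 FPKM under ABBV-744, and 49.1 and 38.7 FPKM under DMSO there. ENOPH1, a later salvage enzyme, also fell in all 4 lines with ABBV-075, by 1.41 in SKM-1 (adjusted p = 3.24e-06, limma), and GOT1 fell in 3, by 1.14 in MV-4-11. ADI1, another salvage enzyme, went the other way and rose with both compounds in all 4 lines, by up to 0.95 ± 0.11 (Kasumi-1 with ABBV-075, adjusted p = 1.95e-06, limma). AHCY was called in no line. Among the relatives of the breakdown enzymes, SAT2 rose in the 3 leukaemia lines with ABBV-075, by 1.49 in SKM-1 (adjusted p = 2.17e-06, limma), PAOX fell by 0.96 in MV-4-11 and by 0.39 in Kasumi-1, AZIN2 rose by 0.78 in MV-4-11 and fell by 0.42 in NCI-H1299, and OAZ3 was not called in NCI-H1299, where alone it was tested.

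**Figure D4:**
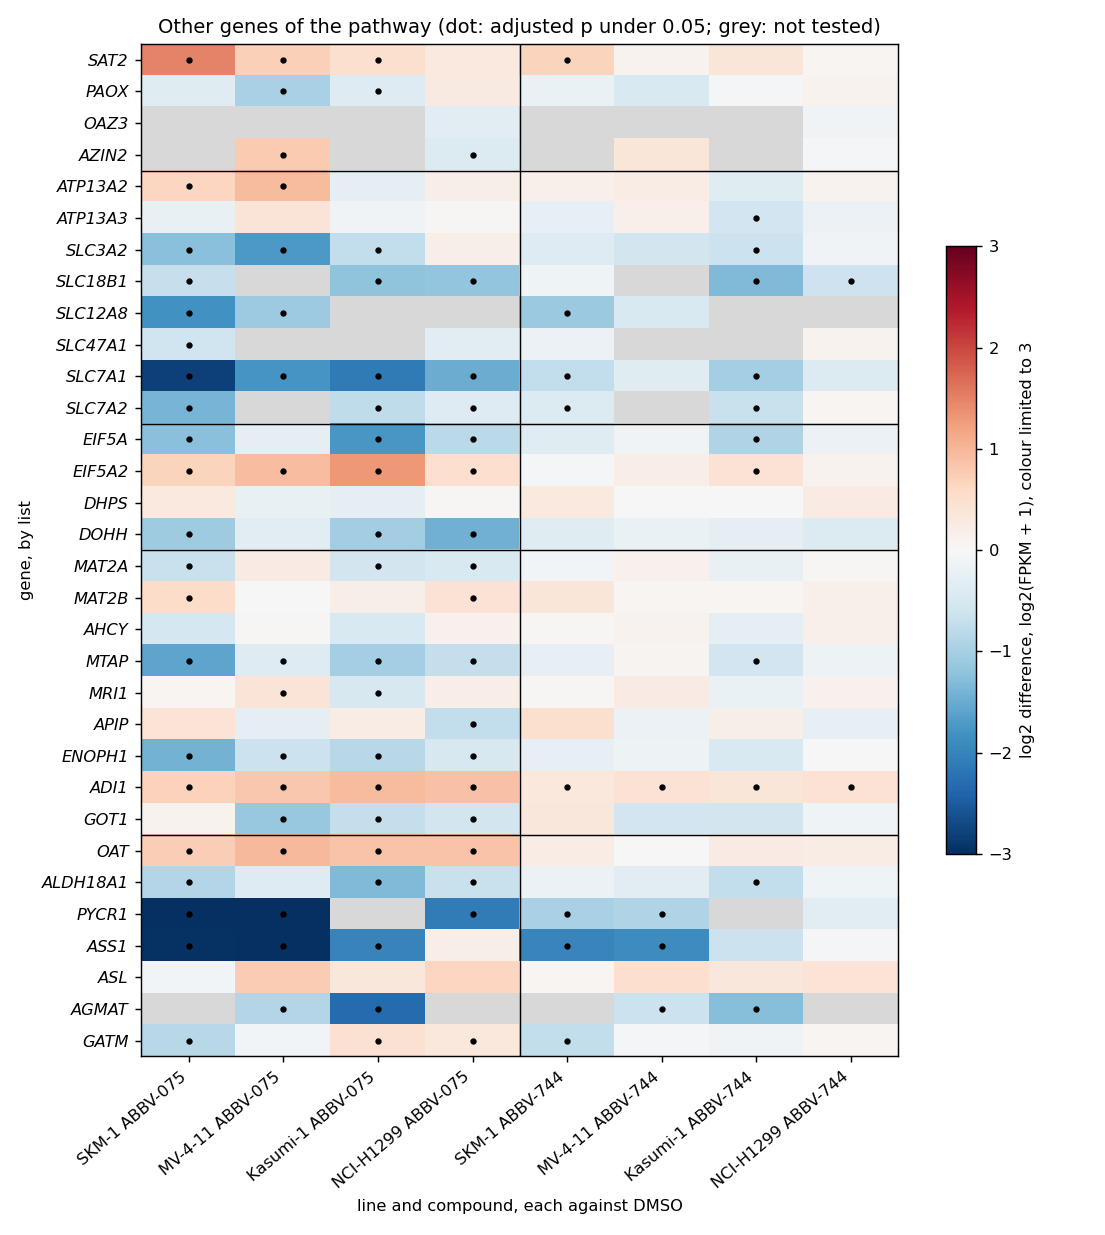
Log2 difference from DMSO on the log2(FPKM + 1) scale (colour) for 32 tested genes of the 5 other lists (down the page) by line and compound (across), with dots where limma's adjusted p was under 0.05 and grey where a gene was not tested. SLC7A1, MTAP and ENOPH1 are blue and dotted in the 4 ABBV-075 columns, and ADI1 is red and dotted in all 8.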

How the data were processed

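The authors deposited 1 table of FPKM values for 30373 entries in 24 libraries, mapped to samples by its column names. The submitters' processing notes name DESeq2, and no aligner, quantifier, build or gene annotation is named (not given in the sources used here). Read depth is therefore unknown. Values were taken to log2(FPKM + 1), so changes of low genes are understated. Entries with at least 1 FPKM in 2 libraries of every line compared were kept. A model of 12 group means was fitted to 15370 entries with limma 3.58.1 in R 4.3.3 (empirical Bayes with trend and robust settings, statmod 1.5.0, 12 residual degrees of freedom). All comparisons of an entry shared 1 spread, estimated over all 24 libraries. Each of 31 comparisons was tested two-sided with Benjamini-Hochberg adjustment over all entries tested in it. An exact permutation test of 2 libraries against 2 cannot go below p = 0.333. The fit was tested on simulated data. Python 3.11.15 with numpy 2.4.6, pandas 2.3.3 and matplotlib 3.10.9 prepared tables and figures. Up to 4 called genes with the largest change and up to 2 uncalled ones were named per other list, and MYC, HEXIM1 and SERPINI1 beside them. AZIN2 was found under its older symbol. The 10 genes, the lists and the rules were chosen with earlier results of these data known. Alternatives changed the pseudocount, filter, scaling, variance model, lines fitted or 1 library at a time. A check of the lung line on carcinoma markers is not reported here.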

Additional observations from a re-analysis of the deposited data

Results flagged for a closer look

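The response to ABBV-075 differed among the 4 lines for 8 genes by limma's F-test over the line by treatment interaction. The adjusted p was 2e-05 for SMOX, 5.02e-05 for ARG2, 0.000223 for SRM, 0.000427 for OAZ2, 0.00276 for SMS, 0.00621 for SAT1, 0.0116 for ODC1 and 0.0165 for AMD1. SMOX and ARG2 rose most in Kasumi-1, SRM fell most in Kasumi-1 and SKM-1, and SMS fell most in NCI-H1299. ODC1 rose most in NCI-H1299, where OAZ2 and SAT1 had their smallest differences, and AMD1 was lower in 3 lines but not in MV-4-11. SMOX in Kasumi-1 passed the filter only through its ABBV-075 libraries, so its difference among lines is a description with either compound. The response to ABBV-744 differed among lines for SMOX (adjusted p = 0.0174) and ODC1 (adjusted p = 0.0444). SMOX fell in MV-4-11 and rose in SKM-1 and Kasumi-1, and ODC1 fell in Kasumi-1. The AMD1 call was lost without MV-4-11 DMSO replicate 2 or ABBV-075 replicate 1, the ODC1 call with ABBV-744 was lost under 22 of 32 alternatives, and the SMOX call with ABBV-744 was lost without MV-4-11 DMSO replicate 2 or ABBV-744 replicate 2.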

How the results depend on the processing

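No paired analysis was possible because the replicate numbers follow the accession order and pair no libraries. Summing entries of the same symbol was not run, since each of the 10 genes has 1 entry. Of 39 calls of the 10 genes against DMSO, 19 held under all 33 alternatives and 20 were lost under at least 1, and 13 differences that were not called were called under some. With array weights the number of the 10 genes called was 5 for SKM-1 with ABBV-075, 0, 4 and 2 for SKM-1, MV-4-11 and NCI-H1299 with ABBV-744, 7 for ABBV-744 against ABBV-075 in NCI-H1299, 4 for the ABBV-744 leukaemia mean minus NCI-H1299 and 4 for the ABBV-744 difference among lines. For line pairs it was 2 (SKM-1 minus MV-4-11) and 1 (SKM-1 minus Kasumi-1) with ABBV-075, 0 (SKM-1 minus MV-4-11) and 3 (MV-4-11 minus Kasumi-1) with ABBV-744, and 3 for the DMSO level of SKM-1 minus Kasumi-1. With the compared lines fitted alone it was 0, 5, 3 and 2 for SKM-1, MV-4-11, Kasumi-1 and NCI-H1299 with ABBV-744, 3 for ABBV-744 against ABBV-075 in SKM-1, 2 and 1 for SKM-1 minus MV-4-11 and minus Kasumi-1 with ABBV-075, and 0 and 0 for the same pairs with ABBV-744. A pseudocount of 0.1 gave 1 in MV-4-11 with ABBV-744 and 3 for SKM-1 minus MV-4-11 with ABBV-075. A filter of 5 FPKM gave 0 for the ABBV-744 difference among lines and 0 for MV-4-11 minus Kasumi-1 with ABBV-744. Quantile normalization gave 1 for that difference among lines, and it and median-of-ratios scaling each gave 0 for SKM-1 minus Kasumi-1 with ABBV-744, while equal sums without mitochondrial transcripts gave 3 for MV-4-11 minus Kasumi-1. Counts over all entries moved under the alternatives too and are given below. The cause was not tested.

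Leaving out 1 library at a time, the count ran from 2 to 6 in MV-4-11 with ABBV-075, 0 to 3 in MV-4-11, 3 to 7 in Kasumi-1 and 0 to 1 in NCI-H1299 with ABBV-744, 0 to 4 for the ABBV-744 leukaemia mean minus NCI-H1299 and 0 to 6 for the ABBV-744 difference among lines. With ABBV-075 it ran from 2 to 7 for SKM-1 minus MV-4-11, 2 to 7 for SKM-1 minus Kasumi-1 and 2 to 5 for MV-4-11 minus Kasumi-1. With ABBV-744 it ran from 0 to 4, 0 to 5 and 0 to 3 for the same pairs, and for DMSO levels from 5 to 8 for SKM-1 minus MV-4-11 and 4 to 8 for SKM-1 minus Kasumi-1. SKM-1 DMSO replicate 1 gave the highest count in most of these. ODC1 turned its sign with the SKM-1 DMSO libraries, from -0.34 to 0.37 for ABBV-744 in SKM-1, from -0.43 to 0.28 for SKM-1 minus MV-4-11 with ABBV-075 and from -0.48 to 0.22 for their DMSO levels. Over all entries, calls ranged from 260 to 6149 in SKM-1, 595 to 2847 in MV-4-11, 927 to 4661 in Kasumi-1 and 190 to 3298 in NCI-H1299 with ABBV-744, against 3604, 1417, 2875 and 687 as reported, and from 4579 to 9345 in SKM-1 with ABBV-075, against 8058. In MV-4-11 with ABBV-075 they ranged from 3817 to 7273 (5285 as reported). For ABBV-744 against ABBV-075 they ranged from 2357 to 6847 in SKM-1 (5740) and from 2682 to 7881 in NCI-H1299 (4445). With ABBV-744 the difference among lines gave 305 to 4068 (662). The leukaemia mean minus NCI-H1299 gave 10 to 813 (58) with ABBV-744. For SKM-1 minus MV-4-11 the range was 1652 to 5215 (3391) with ABBV-075 and 142 to 3685 (631) with ABBV-744. For SKM-1 minus Kasumi-1 it was 739 to 6186 (3515) and 42 to 4118 (453). For MV-4-11 minus Kasumi-1 it was 1814 to 4543 (3020) and 129 to 1783 (432). DMSO levels gave 3713 to 9925 (6587) for SKM-1 minus MV-4-11 and 3378 to 9571 (6342) for SKM-1 minus Kasumi-1. Equal sums without mitochondrial transcripts shifted the median of all entries by -0.15 and the share of higher calls to 32.9%, against 54.3%, in SKM-1 with ABBV-744. That share was 59.8% against 40.6% in MV-4-11 and 23.4% against 36.8% in Kasumi-1 with ABBV-744.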
